A study of Mus musculus with 42 samples.

Results

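DNA replication and S phase genes encode the machinery that copies the genome once per cell cycle. They were followed here as 42 genes, taken from the deposited array table by a list of gene symbols, out of 19752 distinct symbols. Where a symbol had more than 1 transcript cluster, the one with the highest mean was used. Of the 42 genes, 41 were among the 12425 tested for differences. Gmnn, which encodes geminin, the inhibitor of the licensing factor Cdt1, was left out of the tests as too dim, with log2 intensities of 4.86 to 6.57 over the 42 arrays. A gene was tested if 2 or more arrays had it above their median. Orc1 was above it on 4 arrays and Gins1 on 7, all of them after the start of treatment. These 2 genes were thus tested through arrays on which they were high, and their calls are not independent of this filter.

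The arrays came from splenic CD4+ T cells of the diabetes-prone NOD strain, whose mice carried the Foxp3-IRES-GFP reporter (labelled +/+ in the culture samples) in every group. Foxp3 defines regulatory T cells (Treg), so the reporter separated Treg from conventional T cells (Tconv) in the sorter. KT3, an antibody to the CD3 chains of the T cell receptor, was injected into the mice (in vivo), or splenocytes were cultured with 1.25 µg/ml of it (in vitro). Both cell types were profiled at 0 h, taken as before treatment, and 2, 8, 24 and 72 h after KT3, with 2 arrays in each of 20 groups. The KT3 concentration of 1.25 µg/ml is listed for the in vitro 0 h samples too. A further array per cell type, 24 h after injection of rat IgG, served as a control for the injection and made 42 arrays in 22 groups. All in vivo mice were females of 8 weeks, and their cells were sorted as CD4+ cells lacking B220, CD8a, CD11b and CD11c. In vitro, the arrays numbered 1 were from females of 9 weeks and those numbered 2 from males of 14 weeks, so sex and age went with the number there. No source used here gives the injected dose.

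Replication starts in G1, when the origin recognition complex, Cdc6 and Cdt1 load the Mcm2-7 helicase on DNA, a step called licensing. At the start of S phase Cdc45 and the GINS complex, helped by Mcm10, switch the helicase on. Primase and polymerase alpha then begin each strand, and polymerases delta and epsilon, held by the sliding clamp PCNA, extend it. Resting T cells are largely in G0 and lack much of this machinery, and stimulation of the T cell receptor brings them into the cycle, with E2F transcription factors as activators of many of these genes.

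E2F-like letters in the promoters of these genes are shown first because the members are known as E2F targets. RefSeq promoter windows (GRCm38.p6, from 250 bases before to 50 after the start) were found for 36 of the 42 genes, and not for Gmnn, Mcm4, Gins1, Gins2, Prim2 and Pole. The letters searched were TTTGGCGC, TTTCGCGC, TTTCCCGC and TTTGCCGC on both strands, with overlaps allowed. At least one of these stood in 15 of the 36 genes (41.7%), against 2.61% of the 27025 genes that have a window. The 6 stretches below belong to licensing genes that rose at different times, a polymerase subunit and a chromatin gene, and capitals mark the match. They are written 5′ to 3′ on the strand of the gene.
Orc1: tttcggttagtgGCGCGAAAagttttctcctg
Mcm5: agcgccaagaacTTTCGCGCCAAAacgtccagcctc
Mcm6: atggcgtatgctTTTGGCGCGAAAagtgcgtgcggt
Cdc6: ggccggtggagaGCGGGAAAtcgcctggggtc
Pola1: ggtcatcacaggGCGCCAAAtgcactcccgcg
Uhrf1: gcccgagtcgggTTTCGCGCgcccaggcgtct
They lie upstream of the start at chr4:108579415-108579446 (plus strand), chr8:75109344-75109379 (plus), chr1:128359792-128359827 (minus), chr11:98908001-98908032 (plus), chrX:93632274-93632305 (minus) and chr17:56304116-56304147 (plus), in the order printed. In Mcm5 and Mcm6 a match on each strand overlapped. The other genes with a match were Cdt1, E2f2, Gins3, Lig1, Mcm3, Mcm7, Pold1, Pole2 and Rfc3. The CCAAT box stood in 61.1% of the 36 genes against 41.1% of all genes, the GC box GGGCGG in 77.8% against 38.2% and the CHR letters TTTGAA in 13.9% against 20.2%, each on both strands. Such a match is a description of letters and does not show a binding site.

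Values are log2 intensities, pairs are given as array number 1 then number 2, and differences are log2 differences ± SE from 1 limma model over all arrays (n = 2 per group). Called genes are those with an adjusted p under 0.05 over all 12425 genes. Nothing in the labels says that arrays of 1 in vivo group came from separate animals, so the p-values reflect only how far these samples spread, which may be technical. In bulk RNA, a change in the share of cells that are cycling and a change in RNA per cell cannot be told apart. The labelled cell types were seen in the markers, with Foxp3 at 11.30 to 12.34 on Treg arrays and 7.02 to 8.20 on Tconv arrays. This holds for the in vitro Treg too, whose gate is labelled GFP negative.

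Some arrays stood apart. The in vitro Tconv 0 h array number 1 correlated with the others at 0.787 on average, where every other array reached at least 0.910, and its interquartile range was 1.64 log2 units where the rest spanned 2.10 to 3.21. It is part of every in vitro Tconv response, so the counts of those calls are given without it too. In vivo, number 1 was labelled single sorted and number 2 double sorted, except in Tconv at 8 h, where this was reversed, and in Treg at 24 h, where both were single sorted. In all 10 in vivo groups with 2 arrays, replication genes were higher on number 1 in 27 to 41 of 41 genes, with medians of 0.17 to 0.64. Of 32 markers of other cell types 23 to 30 were higher on number 1 as well, with medians of 0.30 to 1.19. The markers of B cells averaged 6.41 to 8.12 on number 1 and 5.41 to 5.98 on number 2, and the 4 neutrophil markers averaged 6.35 to 8.91 on number 1 and 5.24 to 5.63 on number 2. No marker can be at 0 on this scale. The part of these cells in the results was not tested. Changes are also given between arrays of the same number, which holds neither this signal nor the sort fixed. Counts of genes between such arrays are given without a share over all genes. On number 1 the neutrophil markers of Treg averaged 6.38, 6.94, 8.91, 7.27 and 8.81 at 0, 2, 8, 24 and 72 h. Those of Tconv went from 6.35 at 0 h to 7.80 at 72 h. The sort also differed within a number where Tconv at 8 h or Treg at 24 h is compared.

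In Tconv in vivo 21 of 41 replication genes rose between 2 and 8 h, where 6.33% of all genes tested did and 2.15% fell. Between 8 and 24 h 10 rose and 1 fell, where 8.46% and 10.9% of all genes did. The 21 calls became 3 without the 2 h array number 2, 4 without the 8 h array number 1 and 10 without the 8 h array number 2. At 2 h 0 of 41 genes were called (limma; 0 higher and 2 lower at an unadjusted p under 0.05), where 3.04% of all genes were called higher and 0.467% lower. At 8 h 22 were higher and 1 lower, where 14.4% of all genes were called higher and 6.54% lower. Their median change was 1.04, while that of all genes tested was -0.06. At 24 h 30 of 41 were higher and 0 lower, where 2.27% of all genes were called higher and 0.129% lower, and the median was 1.29 against -0.01 for all genes. All 41 had both 24 h arrays above both 0 h arrays, as did 23.3% of all genes tested. Between arrays of number 1 all 41 were higher at 24 h (median 1.44), and between arrays of number 2 also 41 (median 1.19). The counts leaned on single arrays. The 23 calls at 8 h became 12 without the 8 h array number 1 and 12 without the 0 h array number 2, and the 30 at 24 h became 7 without the 24 h array number 1 and 8 without the 0 h array number 2. At 24 h Pole, Lig1, Rrm2 and Tyms kept their calls without each array, while Cdc6, Cdt1, Mcm2, Rfc4, Prim1 and E2f1 lost theirs without either of those last 2 arrays.

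**Figure D1:**
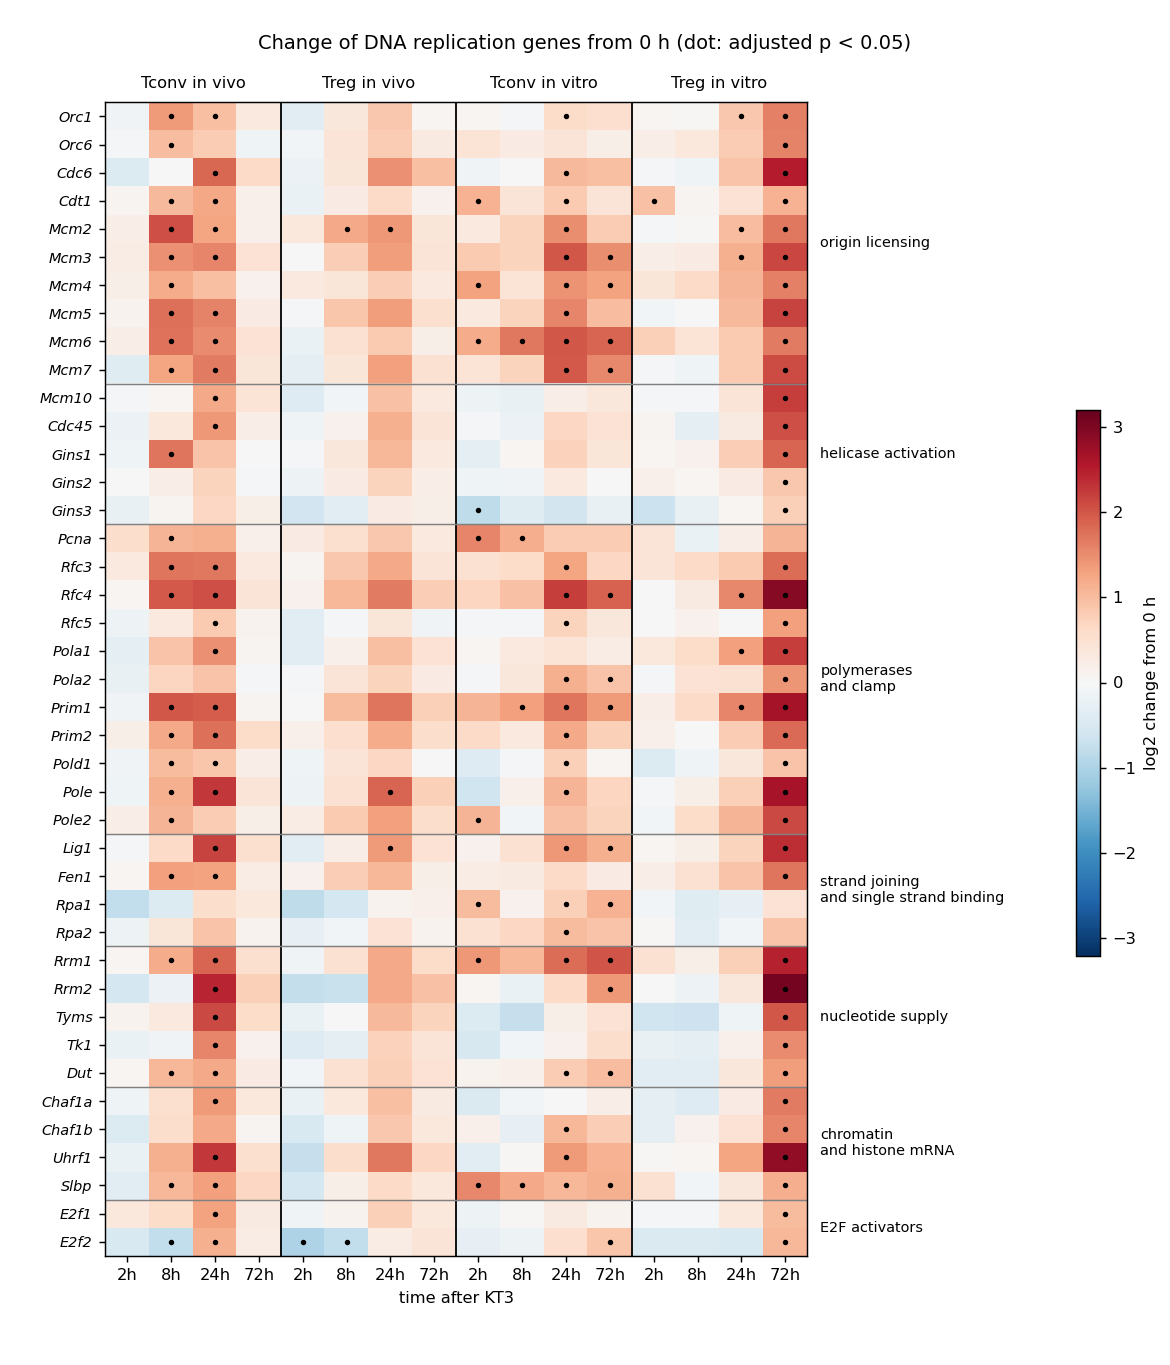
Log2 change from 0 h of the 41 tested replication genes (rows, grouped by role) at 2, 8, 24 and 72 h after KT3 (columns, for each cell type and setting), as colour from blue (lower) to red (higher), with a dot where the adjusted p was under 0.05. The dots fill most of the Tconv in vivo columns at 8 and 24 h (23 and 30 of 41) and the Treg in vitro column at 72 h (38 of 41). Most dots of the Tconv in vitro columns were lost without the 0 h array number 1, and at 72 h also without either 72 h array.

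Of the licensing genes 9 of 10 rose at 8 h and 8 of 10 at 24 h, where 14.4% and 2.27% of all genes did. Mcm2, a subunit of the helicase, had intensities of 9.00 and 8.66 at 0 h, 9.43 and 8.68 at 2 h, 11.07 and 10.73 at 8 h, 10.31 and 9.85 at 24 h, and 9.29 and 8.73 at 72 h. The 8 h pair stood above every other Tconv in vivo array, and the change from 0 h was 2.07 ± 0.29 (adjusted p = 1.3e-05). It was the largest change of any member at that time. From 8 to 24 h Mcm2 fell by 0.82 ± 0.29 on the log2 scale (adjusted p = 0.047), a call that was lost without any 1 of the 4 arrays and under quantile normalization. The other helicase subunits Mcm3, Mcm4, Mcm5, Mcm6 and Mcm7 rose by 1.18 to 1.75 at 8 h. At 24 h Mcm4 alone of these was not called (0.95). Mcm6 stood at 9.03 and 8.52 at 0 h, 10.66 and 10.34 at 8 h, and 10.48 and 10.10 at 24 h. Its groups at 8 and 24 h overlapped each other and both lay above 0 h.

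Orc1, the largest subunit of the origin recognition complex, stood at 5.17 on both 0 h arrays, at 6.40 and 6.63 at 8 h, and at 6.34 and 5.95 at 24 h. Orc1 was dim, above the array median on only 4 of the 42 arrays. Its rise was 1.35 ± 0.21 at 8 h (adjusted p = 4.1e-05) and 0.97 ± 0.21 at 24 h. Orc6, another subunit, rose by 0.99 ± 0.26 at 8 h and was 0.80 higher at 24 h, which was not called. Cdt1, the loader of the helicase, rose by 1.04 ± 0.27 and 1.24 ± 0.27. Cdc6, its partner in loading, kept a different time course. It stood at 7.42 and 6.62 at 0 h, 7.22 and 6.83 at 8 h, and 9.33 and 8.37 at 24 h. The 0 and 8 h arrays overlapped, while both 24 h arrays lay above them, and Cdc6 rose by 1.83 ± 0.38 from 8 to 24 h (adjusted p = 0.001). Its promoter window holds E2F-like letters, as do those of Orc1, Mcm5 and Mcm6 that rose by 8 h. Of the 15 genes with such letters 9 were called higher at 8 h, and of the 21 genes with a window but no match also 9 (14.4% of all genes).

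Among the genes that activate the helicase, Gins1 rose by 1.70 ± 0.30 at 8 h and was 0.90 above 0 h at 24 h, not called. Gins1 was dim too, above the array median on only 7 of the 42 arrays. Mcm10, which helps to start unwinding, stood at 6.61 and 6.28 at 0 h, 6.62 and 6.37 at 8 h, and 7.92 and 7.39 at 24 h. As with Cdc6, only the 24 h arrays were high. Mcm10 rose by 1.21 ± 0.29 and Cdc45 by 1.40 ± 0.33 from 0 to 24 h, and neither was called at 8 h. Gins2 and Gins3, the other GINS subunits measured, were not called at either time (0.22 and 0.08 at 8 h, 0.71 and 0.65 at 24 h).

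Of the polymerase and clamp genes 8 of 11 were called higher at 8 h and 8 of 11 at 24 h, where 14.4% and 2.27% of all genes were. Prim1, the catalytic subunit of primase, stood at 7.25 and 7.19 at 0 h, 9.24 and 9.15 at 8 h, 9.35 and 8.96 at 24 h, and 7.40 and 7.23 at 72 h. Both middle times lay above the outer times, and the rise was 1.98 ± 0.41 at 8 h and 1.93 ± 0.41 at 24 h. Rfc4, of the clamp loader, had 7.55 and 7.16 at 0 h, 9.54 and 9.07 at 8 h, and 9.82 and 9.01 at 24 h, with rises of 1.95 ± 0.41 and 2.06 ± 0.41. Pole, the catalytic subunit of polymerase epsilon, climbed in steps. It had 6.70 and 5.72 at 0 h, 7.38 and 7.32 at 8 h, and 8.96 and 7.99 at 24 h, so that the 3 groups did not overlap. Its rise was 1.14 ± 0.36 at 8 h and 2.26 ± 0.36 at 24 h (adjusted p = 0.00021). Rfc3, Prim2 and Pold1 were called at both times, with rises of 1.00 to 1.71 at 8 h and 0.89 to 1.76 at 24 h. Pole2 (1.09) and Pcna (1.08) were called at 8 h alone (Pole2 not without any 1 of the 4 arrays), Pola1 (1.45) and Rfc5 (0.83) at 24 h alone, and Pola2 at neither time (0.69 and 0.91). Pcna has 2 clusters on the array whose group means differed by at most 0.01, so that its signal cannot be told apart from that of a near-identical copy.

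In nucleotide supply 3 of 5 genes, and in strand joining 2 of 4, rose between 8 and 24 h, where 8.46% of all genes did. Lig1, the ligase that joins the fragments of the lagging strand, stood at 7.41 and 6.77 at 0 h, 7.82 and 7.59 at 8 h, and 9.58 and 8.94 at 24 h. It rose by 2.17 ± 0.31 at 24 h (adjusted p = 6e-05) and by 1.56 ± 0.31 in the step from 8 to 24 h. Fen1, the nuclease that trims those fragments, rose by 1.31 ± 0.33 and 1.29 ± 0.33 at 8 and 24 h. Rpa1 and Rpa2, which coat single-stranded DNA, were not called from 0 h at either time. Rpa1 rose from 9.38 and 9.05 at 8 h to 10.39 and 10.04 at 24 h (1.01 ± 0.26).

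Rrm2, the regulated subunit of ribonucleotide reductase, which makes deoxynucleotides, had 7.56 and 7.03 at 0 h, 6.91 and 6.56 at 2 h, 7.26 and 6.97 at 8 h, 9.96 and 9.48 at 24 h, and 8.43 and 7.70 at 72 h. No array at 2 or 8 h lay above the higher 0 h array, and then both 24 h arrays were high. The rise was 2.43 ± 0.35 from 0 h and 2.61 ± 0.35 from 8 h (adjusted p = 6.0e-06), kept without each 1 of the 4 arrays. Tyms, thymidylate synthase, stood at 6.22 and 6.46, then 6.58 and 6.72 at 8 h and 8.60 and 8.30 at 24 h, a step of 1.80 ± 0.32. Tk1, thymidine kinase, had at most 7.40 at 0 h, then 7.01 and 7.15 at 8 h, and 9.19 and 8.32 at 24 h, a step of 1.67 ± 0.25. In contrast, Rrm1, the large reductase subunit, rose by 1.19 ± 0.39 at 8 h already and by 1.87 ± 0.39 at 24 h. Dut, which removes dUTP, rose by 1.07 ± 0.23 and 1.21 ± 0.23.

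Uhrf1, which takes part in carrying DNA methylation over to the new strand, stood at 7.25 and 6.38 at 0 h, 8.14 and 7.75 at 8 h, and 9.30 and 8.83 at 24 h. It rose by 2.25 ± 0.41 at 24 h, and its 1.13 at 8 h was not called. Slbp, the protein that binds histone mRNA, rose by 1.05 ± 0.34 at 8 h and 1.30 ± 0.34 at 24 h, the latter not called without any 1 of the 4 arrays. The chromatin assembly gene Chaf1a rose at 24 h (1.36 ± 0.34), and Chaf1b was 1.20 higher, not called. Of the E2F activators E2f2 was called lower at 8 h and E2f1 was not called (0.59). E2f2 stood at 7.51 and 7.48 at 0 h, 6.84 and 7.18 at 2 h, 6.66 and 6.77 at 8 h, and 8.85 and 8.42 at 24 h. It fell by 0.78 ± 0.22 on the log2 scale at 8 h (adjusted p = 0.012) and then rose by 1.91 ± 0.22 to 24 h (adjusted p = 8.6e-07). The 8 h call was lost with median centring, and without either 0 h array or the 8 h array number 1. E2f1 had 6.41 and 6.03, then 6.95 and 6.68 at 8 h and 7.88 and 7.15 at 24 h, and rose by 1.29 ± 0.25 at 24 h.

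The step from 8 to 24 h in Tconv in vivo was called higher in 10 of 41 genes (8.46% of all genes) and lower in 1 (10.9% of all genes). These were Rrm2, E2f2, Cdc6, Tyms, Tk1, Lig1, Mcm10, Pole, Cdc45 and Rpa1, with steps of 1.01 to 2.61, and Mcm2, which fell. By role they came from nucleotide supply (3 of 5), strand joining (2 of 4), helicase activation (2 of 5), licensing (1 of 10), polymerases (1 of 11) and E2F (1 of 2). The steps of Rrm2, Tyms, Tk1, Lig1 and E2f2 kept their call without each 1 array. The 11 calls became 6 without the 24 h array number 1 and 6 without the 8 h array number 2. From 24 to 72 h 10 genes fell and 0 rose, where 0.813% of all genes were called lower and 0.0483% higher, namely Pole, Prim1, Uhrf1, Lig1, Rrm2, Tyms, Tk1, Rfc3, Prim2 and E2f2 (-1.86 to -0.90). All 41 were lower at 72 h than at 24 h between arrays of either number, while the count of called genes was 10. That count was 0 without the 24 h array number 1 and 0 without the 72 h array number 2, 5 without the 72 h array number 1, and 15 without the 24 h array number 2. At 72 h 0 genes were called against 0 h (limma; 1 higher at an unadjusted p under 0.05), where 0.266% of all genes were called higher and 0.0241% lower, with a median of 0.27.

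**Figure D2:**
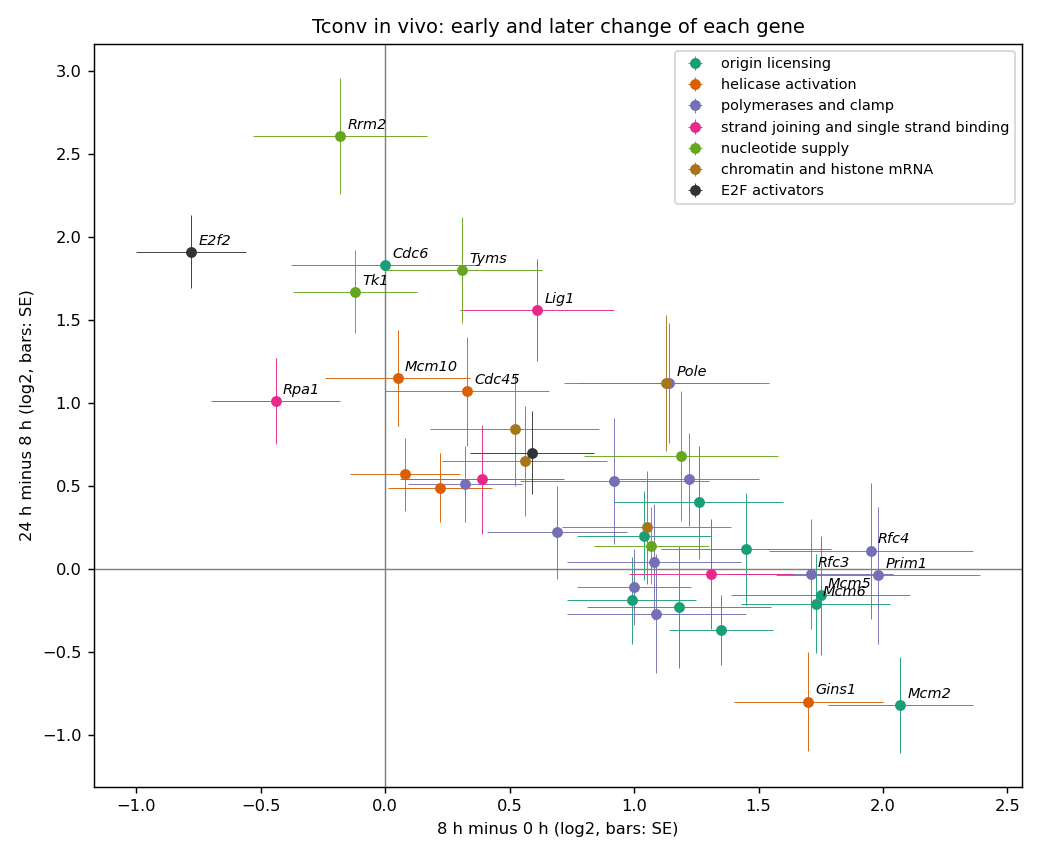
For each of the 41 genes in Tconv in vivo, the log2 change from 0 to 8 h (horizontal) and from 8 to 24 h (vertical) with SE bars, coloured by role. Both axes use the 8 h arrays, so their slope is not a result. Rrm2, E2f2, Cdc6, Tyms and Tk1 lie at or left of 0.31 and above 1.6, while Mcm2, Prim1 and Rfc4 lie at about 2 and at or below 0.11.

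In Treg in vivo all 41 changes from 0 to 24 h were above 0, and few were called. With the array number as a replicate block more were called, as listed with the alternatives below. At 24 h 3 of 41 genes were called higher, where 0.451% of all genes were, with a median of 0.96 against 0.01 for all genes. At an unadjusted p under 0.05 35 were higher and 0 lower, where 744 of all 12425 genes passed in either direction. In 40 of 41 both 24 h arrays lay above both 0 h arrays, as they did in 21.7% of all genes. Between arrays of number 1 41 were higher (median 1.23) and between those of number 2 40 (median 0.69). The 3 genes were Pole, Mcm2 and Lig1. Pole stood at 6.55 and 6.04 at 0 h and 8.74 and 7.56 at 24 h (1.86 ± 0.36, adjusted p = 0.011). Mcm2 had 8.67 and 8.47 at 0 h, 9.81 and 9.75 at 8 h, and 10.33 and 9.58 at 24 h. It rose by 1.21 ± 0.29 at 8 h and 1.38 ± 0.29 at 24 h, and lay above 0 h on every array of both times. At 8 h it was the 1 gene of 41 called higher, where 6.36% of all genes were, and that call was lost without the 8 h array number 1 or the 0 h array number 2. The 24 h call was lost without the 24 h array number 1 or either 0 h array. Lig1 went from 7.60 and 7.11 to 9.15 and 8.27 (1.35 ± 0.31, adjusted p = 0.046), a call lost under quantile normalization and median centring. The count was 0 without the 24 h array number 1, 0 without the 0 h array number 2, 1 without the 0 h array number 1 and 16 without the 24 h array number 2.

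E2f2 was the one replication gene called lower in Treg in vivo. It stood at 7.90 and 7.86 at 0 h, 6.61 and 7.18 at 2 h, at most 7.18 at 8 h, 8.29 and 7.96 at 24 h, and 8.28 on both arrays at 72 h. Both arrays at 2 h and both at 8 h lay below the 0 h pair. It fell by 0.98 ± 0.22 on the log2 scale at 2 h (adjusted p = 0.0054, not called without array number 1 of either time), where 1.42% of all genes were called lower and 5.04% higher, and 0 replication genes were higher (limma; 0 higher and 4 lower at an unadjusted p under 0.05). At 8 h it was lower by 0.79 ± 0.22 (adjusted p = 0.022), a call lost without any 1 of the 4 arrays and under both rescalings, where 3.31% of all genes were called lower. From 8 to 24 h 6 genes rose, where 2.63% of all genes did, namely Rrm2 (1.92 ± 0.35), Pole (1.37), Lig1 (1.13), E2f2 (1.04), Tk1 (1.02) and Mcm10 (1.01). That count became 1 without the 24 h array number 1, 2 without the 8 h array number 2, 3 without the 8 h array number 1 and 12 without the 24 h array number 2. Rrm2 had 7.86 and 7.63 at 0 h, 6.86 and 7.10 at 2 h, 7.32 and 6.75 at 8 h, 9.10 and 8.81 at 24 h, and 9.29 and 8.07 at 72 h. The arrays at 2 and 8 h thus lay below those at 0 h, although that difference was not called (-0.77 and -0.71). At 72 h 0 genes were called (limma; 4 higher at an unadjusted p under 0.05), where 0.0241% of all genes were called higher and 0.0% lower. Between 2 and 8 h 0 were called (limma; 12 higher at an unadjusted p under 0.05), where 0.233% of all genes were called higher and 0.298% lower. Between 24 and 72 h 0 were called either (limma; 21 lower at an unadjusted p under 0.05), where 0.0483% and 0.0241% were. At that unadjusted p 1011 of all 12425 genes passed from 2 to 8 h and 475 from 24 to 72 h, in either direction.

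**Figure D3:**
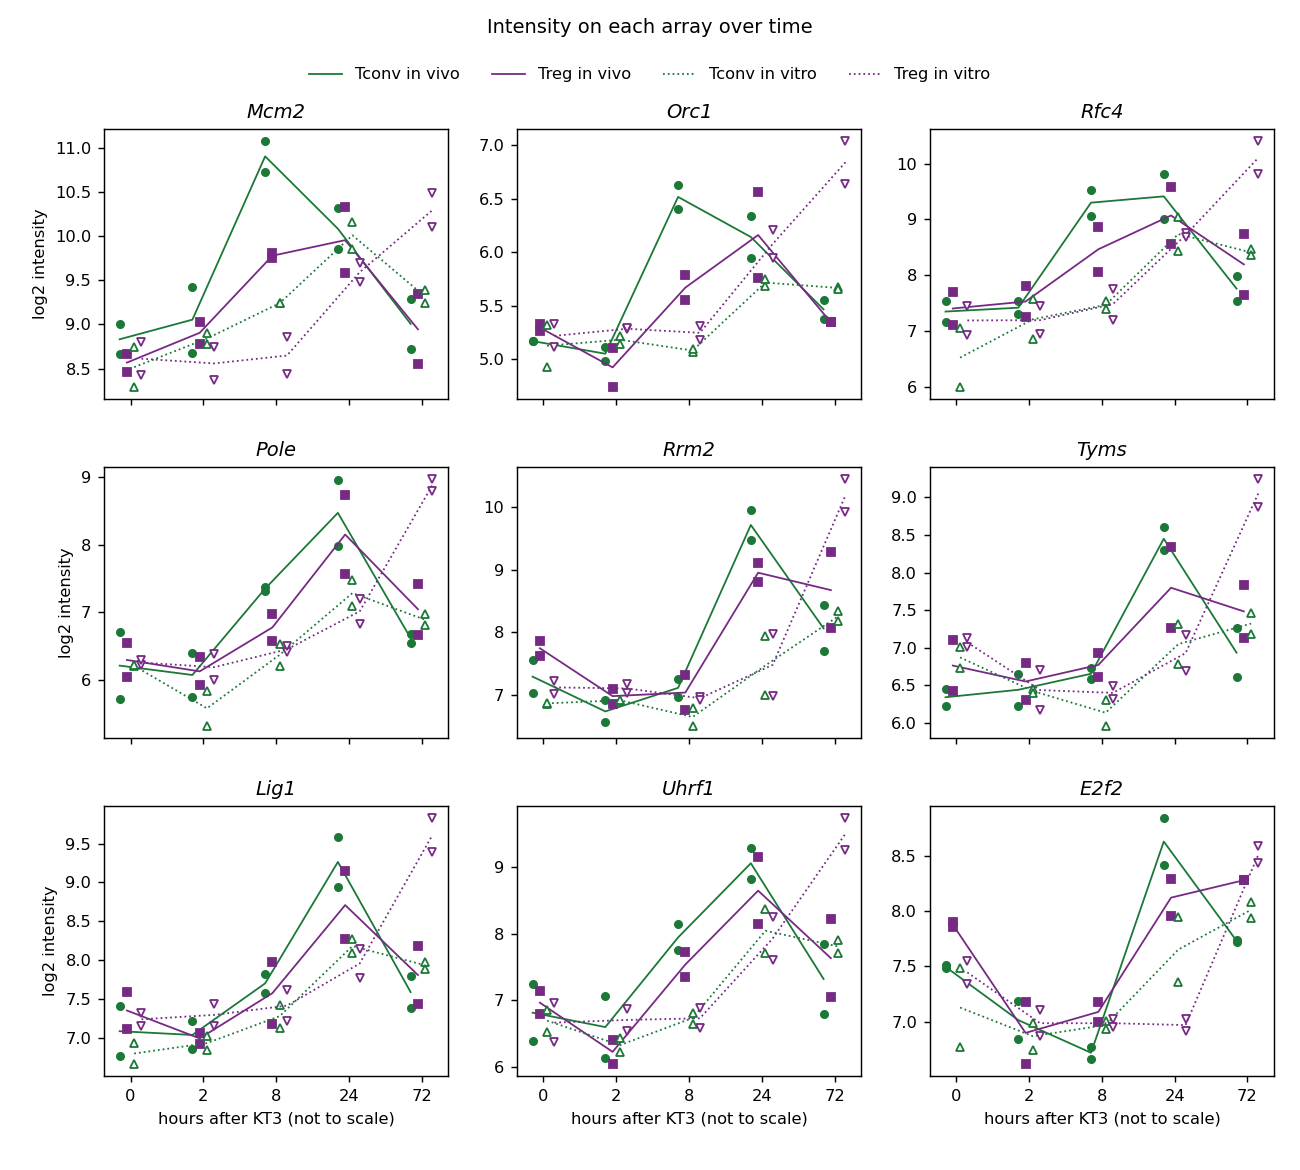
Log2 intensity of 9 replication genes on each array (points, filled in vivo and open in vitro) at 0, 2, 8, 24 and 72 h after KT3, with lines through the mean of the 2 arrays, for Tconv (green) and Treg (purple). In Tconv in vivo the means of Mcm2 and Orc1 were highest at 8 h and those of Rrm2, Tyms, Lig1 and E2f2 at 24 h, and among Treg in vitro both 72 h arrays were the highest for all 9 genes.

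In cultured Treg few replication genes were called up to 24 h, and 38 of 41 by 72 h. The model leaves out the array number, with which sex and age went in vitro. With the number as a replicate block more genes were called at 24 h, as listed with the alternatives below. At 2 h Cdt1 alone was called, of 41 genes and where 4.02% of all genes were called higher. It went from 8.30 and 8.21 to 9.35 and 9.04 (0.94 ± 0.27, adjusted p = 0.04), a call lost without any 1 of the 4 arrays. At 8 h 0 were called (limma; 0 higher and 2 lower at an unadjusted p under 0.05), where 4.52% of all genes were called higher and 1.09% lower. Between 2 and 8 h 0 were called as well (limma; 1 lower at an unadjusted p under 0.05), where 2.92% and 1.35% of all genes were. At 24 h 6 of 41 were called higher, where 5.01% of all genes were. The 6 were Prim1 (1.56), Rfc4 (1.53), Pola1 (1.30), Mcm3 (1.15), Mcm2 (0.98) and Orc1 (0.86). Prim1 stood at 6.33 and 7.27 at 0 h and at 8.36 on both arrays at 24 h. Rfc4 had 6.93 and 7.46 at 0 h and 8.76 and 8.68 at 24 h. Of the 6 calls 0 were left without the 0 h array number 1 or the 24 h array number 2, 1 without the 24 h array number 1, and 1 under quantile normalization, while 12 genes were called without the Tconv 0 h array that stood apart, which enters here through the shared estimate of spread.

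At 72 h 38 of 41 genes were called higher in Treg in vitro and 0 lower, where 7.34% of all genes were called higher and 1.77% lower. The median was 1.68, against 0.05 for all genes, and in all 41 both 72 h arrays lay above both 0 h arrays, as in 30.3% of all genes. The count stayed between 30 and 37 without each array in turn. Licensing had 10 of 10 genes called, helicase activation 5 of 5, polymerases and clamp 10 of 11, strand joining 2 of 4, nucleotide supply 5 of 5, chromatin 4 of 4 and E2F 2 of 2. Pcna (1.09), Rpa2 (0.90) and Rpa1 (0.45) were not called. Rrm2 changed most, from 7.02 and 7.22 at 0 h over 6.99 and 7.97 at 24 h to 10.45 and 9.93 at 72 h (3.07 ± 0.35, adjusted p = 7.7e-07). Number 2 was thus higher than number 1 at 24 h, and lower at 72 h.

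Rfc4 reached 10.40 and 9.80 at 72 h (2.91 ± 0.41). Uhrf1 went from 6.96 and 6.37 to 9.74 and 9.27 (2.84 ± 0.41). Prim1 reached 9.59 and 9.33 (2.66 ± 0.41). All of these lay at least a full log2 unit above the 24 h arrays on number 1. Pole went from 6.22 and 6.29 at 0 h to 8.97 and 8.80 (2.63 ± 0.36). Cdc6 rose from 6.81 and 6.52 to 9.32 and 9.01 (2.50 ± 0.38) and Lig1 from 7.33 and 7.15 to 9.83 and 9.39 (2.37 ± 0.31). For each of these 3 genes the pair of arrays lay closer together than the change from 0 h. Mcm10 rose from 6.48 and 6.19 to 8.80 and 8.29 (2.21 ± 0.29). E2f1 went from 6.41 and 6.06 to 7.36 and 7.11 (1.00 ± 0.25) and E2f2 from 7.34 and 7.55 to 8.59 and 8.44 (1.07 ± 0.22). Before that, E2f2 was at 6.91 and 7.02 at 24 h, below its 0 h arrays (-0.48, not called).

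In Treg in vitro the median change from 0 h was 0.72 at 24 h and 1.68 at 72 h. From 24 to 72 h 18 of 41 genes were called higher, where 2.76% of all genes were, and all 41 were higher between arrays of either number (medians 1.30 and 0.70). The largest steps were in Rrm2 (2.71 ± 0.35), Tyms (2.13 ± 0.32), Pole (1.87 ± 0.36), Mcm10 (1.80 ± 0.29) and Cdc45 (1.79 ± 0.33). Tyms stood at 7.13 and 7.01 at 0 h, 6.68 and 7.17 at 24 h, and 9.24 and 8.87 at 72 h, so that its 0 and 24 h arrays overlapped. The 18 calls became 8 without the 24 h array number 1 and 7 without the 72 h array number 1. From 8 to 24 h 0 genes were called (limma; 13 higher and 0 lower at an unadjusted p under 0.05), and over all 12425 genes the share called was 0.0%. At that unadjusted p 329 of all genes passed in either direction.

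In Tconv in vitro the calls depended on single arrays, and the median of all genes lay 0.23 above 0 h at 24 h and 0.15 at 72 h. Of 41 genes 8 were called higher and 1 lower at 2 h (19.5% and 6.8% of all genes), 4 higher at 8 h (15.7%), 25 at 24 h (19.4%) and 14 at 72 h (6.65%). The share called higher was thus no larger than that of all genes at 2 h, and smaller at 8 h. Without the 0 h array that stood apart the counts were 0, 1, 1 and 1, and without the 0 h array number 2 they were 14, 14, 27 and 23. Without number 1 of the later time they were 3, 4, 14 and 2, and without number 2 of it 6, 1, 11 and 3. At 2 h the largest changes were in Pcna and Slbp. Pcna stood at 8.56 and 10.31 at 0 h and 11.08 and 10.94 at 2 h (1.57 ± 0.35). Slbp stood at 6.58 and 8.21 at 0 h and 8.98 and 8.87 at 2 h (1.53 ± 0.34). In both genes array number 1 at 0 h was far below number 2, and the number 2 arrays alone differed by less. At 8 h Mcm6 went from 7.22 and 8.58 to 9.52 and 9.64 (1.68 ± 0.30), and Prim1 from 5.42 and 7.02 to 7.12 and 7.94 (1.32 ± 0.41).

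At 24 h in Tconv in vitro Mcm3 stood at 9.78 and 10.12, after 7.29 and 8.62 at 0 h (1.99 ± 0.34). Rfc4 stood at 8.43 and 9.05, after at most 7.06 (2.21 ± 0.41). Between the number 2 arrays alone 39 of 41 genes were higher at 24 h than at 0 h, with a median of 0.82, which has no test. No share over all genes stands beside it, and the median of all genes over both numbers was itself 0.23 above 0 h. By role the calls were in licensing (9 of 10), polymerases and clamp (8 of 11), strand joining (3 of 4), chromatin (3 of 4), nucleotide supply (2 of 5), and 0 of 5 in helicase activation and 0 of 2 in E2F. Over all genes 19.4% were called higher. At 72 h Rrm1 stood at 9.69 and 9.76, after 6.87 and 8.55 (2.01 ± 0.39), and Rfc4 at 8.47 and 8.36 (1.88 ± 0.41). The step from 8 to 24 h was called in 4 genes (Chaf1b, Mcm3, Mcm7 and Rfc5, 0.77 to 1.33), where 3.63% of all genes were called higher, and 0 of these calls were left without the 8 h array number 1 or either 24 h array. From 2 to 8 h Pole2 and Rpa1 were lower (-1.17 and -0.87), where 5.13% of all genes were called lower, and 0 were called without either 2 h array or the 8 h array number 1. From 24 to 72 h 0 were called (limma; 1 higher and 2 lower at an unadjusted p under 0.05), where 0.0644% and 0.0402% of all genes were.

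Treg and Tconv were then compared at each time. Before injection 0 of 41 genes differed (limma; 1 higher and 1 lower at an unadjusted p under 0.05), where 2.58% of all genes were called higher in Treg and 0.515% lower. At 8 h in vivo 5 genes were lower in Treg, where 1.07% of all genes were, and 0 were higher (3.2% of all genes). These were Pole2 (-1.42 ± 0.36, adjusted p = 0.021), Gins1 (-1.28 ± 0.30, adjusted p = 0.012), Mcm2 (-1.12 ± 0.29), Cdt1 (-0.97 ± 0.27) and Orc1 (-0.85 ± 0.21). Pole2 was not called under either rescaling and Cdt1 not with median centring. Gins1 had 7.57 and 7.31 in Tconv and 6.44 and 5.87 in Treg. Pole2, an accessory subunit of polymerase epsilon, had 8.53 and 8.43 in Tconv and 7.43 and 6.68 in Treg, and was lower in Treg at 0 h already (6.48 and 5.98 against 7.18 and 7.59, not called). Treg was lower in 33 of 41 genes between arrays of number 1 and in 38 between those of number 2. The 5 calls became 0 without the Tconv 8 h array number 1 or the Treg 8 h array number 2, 1 without the Tconv array number 2, and 3 without the Treg array number 1. At 2, 24 and 72 h in vivo 0 were called (limma; 1, 6 and 1 lower and 0, 0 and 2 higher at an unadjusted p under 0.05), where 2.94%, 2.51% and 3.01% of all genes were higher in Treg and 0.515%, 0.684% and 0.588% lower.

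At 72 h in culture 30 of 41 genes were higher in Treg than in Tconv, where 8.58% of all genes were, with 0 lower (1.71% of all genes). The median difference was 1.16 against 0.05 for all genes, and 40 of 41 were higher in Treg between arrays of either number. Pola1, the catalytic subunit of polymerase alpha, had 6.20 and 6.55 in Tconv and 8.85 and 9.00 in Treg (2.55 ± 0.38, adjusted p = 4.7e-05). At 24 h Treg had 7.80 and 8.21 against 6.14 and 7.03 (1.42 ± 0.38), a call lost without the Tconv array number 1 or either Treg array. Pole had 6.81 and 6.97 in Tconv against 8.97 and 8.80 (1.99 ± 0.36), Rrm2 8.18 and 8.34 against 10.45 and 9.93 (1.93 ± 0.35), and Prim1 7.46 and 7.70 against 9.59 and 9.33 (1.88 ± 0.41). The Tconv and Treg arrays did not overlap for any of these 4 genes. Rpa1 was the gene that lay the other way (-0.21, not called).

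The count of 30 was 17 under quantile normalization. It was 8 without the Treg array number 1, 11 without the Tconv array number 1 and 15 without the Tconv array number 2. At the other in vitro times few genes differed. At 0 h Mcm6 (1.21) and Slbp (1.06) were higher in Treg (8.68% of all genes), 0 were called without the array that stood apart or the Treg 0 h array number 2, and 11 without the Tconv 0 h array number 2. At 2 h Pole2 was lower (0.531%), at 8 h Mcm4 was higher (17.2%), and at 24 h Rfc5 and E2f2 were lower (7.05%) and Pola1 higher (14.2%). The 2 h call was lost without the Tconv array number 1 or the Treg array number 2, and the 8 h call without the Tconv array number 1 or either Treg array. At 24 h 0 were called without number 1 of either cell type, and Rfc5 alone without the Treg array number 2, while 5 were called without the Tconv array number 2.

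**Figure D4:**
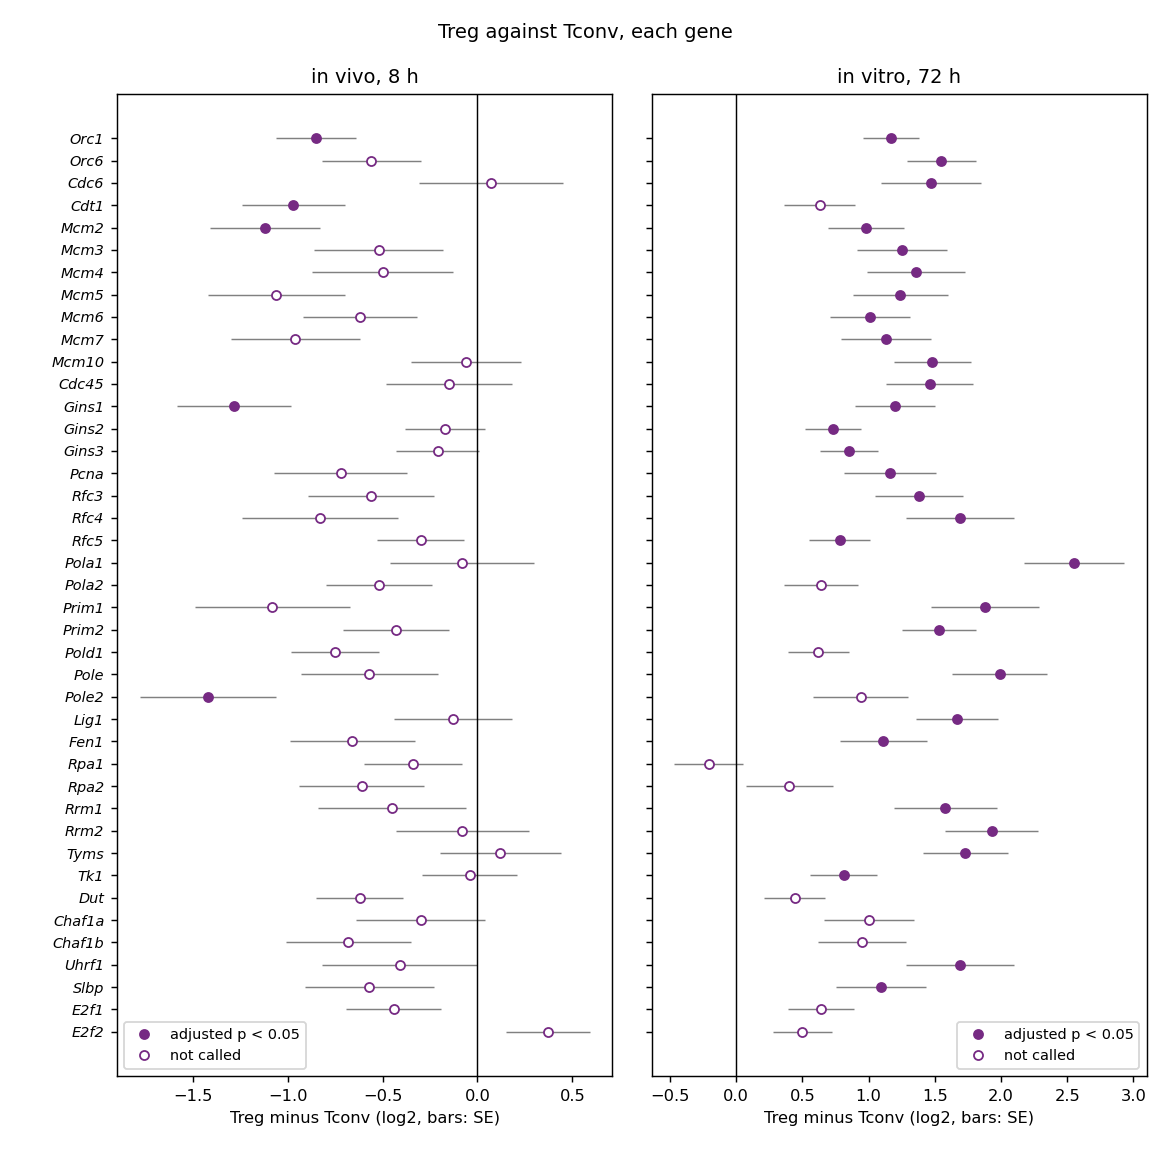
Log2 difference between Treg and Tconv with SE bars for each of the 41 genes, in vivo at 8 h (left) and in vitro at 72 h (right), filled where the adjusted p was under 0.05. On the left 5 filled points lie below 0, and on the right 30 filled points lie above 0, with Pola1 farthest out at 2.55.

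Whether the responses themselves differed between the cell types was tested as Treg change minus Tconv change. In vivo 0 of 41 genes were called at 8 h (limma; 4 lower at an unadjusted p under 0.05) and 0 at 24 h (4 lower), where 0.0966% and 0.0241% of all genes were called higher and 0.137% and 0.0402% lower. The medians were -0.57 and -0.40. In vitro at 72 h Orc6, Mcm10 and Pole had larger changes in Treg, by 1.40 ± 0.37, 1.85 ± 0.41 and 1.95 ± 0.50 (adjusted p = 0.043, 0.013 and 0.043), where 1.26% of all genes were called higher. At an unadjusted p under 0.05 26 were higher and 0 lower, where 1319 of all 12425 genes passed in either direction. Orc6 had 6.51 and 6.77 at 0 h and 6.65 and 7.01 at 72 h in Tconv, and 6.61 and 6.95 at 0 h and 8.41 and 8.35 at 72 h in Treg. Mcm10 had 6.98 and 6.44 and then 7.19 and 6.94 in Tconv. None of the 3 calls was left without the array that stood apart, the Treg 0 h array number 2, the Treg 72 h array number 1 or the Tconv 72 h array number 2, and 15 genes were called without the Tconv 0 h array number 2.

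Settings were compared in the same way, as in vivo change minus in vitro change. In Treg at 72 h 5 genes had smaller changes in vivo, where 1.34% of all genes did, namely Rrm2 (-2.14 ± 0.50), Lig1 (-1.91 ± 0.44), Mcm10 (-1.90 ± 0.41), Orc1 (-1.57 ± 0.29, adjusted p = 0.0048) and Rfc5 (-1.42 ± 0.32). Lig1 in Treg in vivo was at 7.60 and 7.11 at 0 h and 8.19 and 7.43 at 72 h, while in vitro it was at 9.83 and 9.39 at 72 h. Orc1 had 5.35 on both Treg in vivo arrays at 72 h against 7.04 and 6.64 in vitro. Both in vitro arrays are among the 4 on which Orc1 lay above the array median. The count was 0 without the in vitro 72 h array number 1, 1 without the in vivo 0 h array number 1 or the in vivo 72 h array number 2, 2 without the in vivo 0 h array number 2 or either in vitro 0 h array, and 11 without the in vivo 72 h array number 1.

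In Tconv the changes of Tyms (1.93 ± 0.45) and Tk1 (1.42 ± 0.35) at 24 h and of Orc1 at 8 h (1.39 ± 0.29) were larger in vivo, where 0.604% and 0.233% of all genes were called higher. Tyms in Tconv in vitro was at 7.01 and 6.73 at 0 h and at 6.78 and 7.32 at 24 h, so that its groups overlapped, unlike those in vivo. At 2 h Rpa1 (-1.81 ± 0.36) and Slbp (-1.89 ± 0.47) had the lower change in vivo (4.22% of all genes). Rpa1 in Tconv went from 9.66 and 9.63 to 8.84 and 8.87 in vivo, and from 8.13 and 9.49 to 9.88 and 9.78 in vitro. Between the in vitro arrays of number 2 alone Rpa1 rose less than on number 1. The size of its difference thus leans on number 1. All Tconv comparisons of this kind use the in vitro 0 h array that stood apart, and without it Rpa1 alone of these 5 genes was called. Rpa1 kept its call without each of the 8 arrays, and Slbp kept it only without the in vivo 2 h or the in vitro 0 h array number 2. The call of Orc1 at 8 h was kept only without the in vitro 0 h array number 2. At 24 h 0 genes were called without the in vivo array number 1 of either time or the in vitro array number 1 of either time, and 10 without the in vitro 0 h array number 2.

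The injection itself was checked with IgG. In Tconv 17 of 41 genes were higher 24 h after KT3 than after IgG, where 1.4% of all genes were, and in Treg 1 (Pole, 2.26 ± 0.44), where 0.274% of all genes were. Each IgG group is a single array with number 2, assumed to vary like the other groups. Pole stood at 5.89 on the Treg IgG array against 8.74 and 7.56 after KT3. In Treg the median difference of the 41 genes was 1.23. It was 0.91 without the KT3 array number 1 and 1.57 without number 2. All 41 genes were higher on number 1 of these 2 KT3 arrays (median 0.64). Rrm2 stood at 6.94 on the Tconv IgG array against 9.96 and 9.48 after KT3 (2.78 ± 0.43). Lig1 stood at 6.93 against 9.58 and 8.94 (2.33 ± 0.38), and Mcm2 at 8.70 against 10.31 and 9.85 (1.38 ± 0.35). Without the KT3 array number 1 the Tconv count was 3, and without number 2 it was 26. Between IgG and 0 h 0 genes were called in either cell type (limma; 0 at an unadjusted p under 0.05), and the share of all genes called was 0.0%.

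Other genes of replication were counted in the same comparisons. Of 31 further fork and origin genes tested 8 were higher in Tconv in vivo at 8 h and 7 at 24 h, with 0 lower at either, where 14.4% and 2.27% of all genes were called higher. Hells, a chromatin remodeler, rose by 2.11 ± 0.50 at 8 h, and Asf1b, a histone chaperone, by 2.39 ± 0.34 at 24 h. In Treg in vitro at 72 h 20 of 31 were higher, where 7.34% of all genes were, with Hells at 3.44 ± 0.50 and Dbf4, the activator of the Cdc7 kinase, at 2.75 ± 0.40. Of 22 genes for E2F partners, pocket proteins and S phase kinases 6 were higher and 1 lower at 8 h in Tconv in vivo (14.4% and 6.54% of all genes), 5 were higher at 24 h (2.27%), and 13 were higher in Treg in vitro at 72 h (7.34%). Chek1, the checkpoint kinase, rose by 2.76 ± 0.38 at 8 h, and Cdkn1b, the inhibitor p27, was lower by 1.53 on the log2 scale (-1.53 ± 0.35). Ccna2, cyclin A2, rose by 3.28 ± 0.39 from 8 to 24 h.

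For 2 genes a second cluster on the array could be compared. The other cluster of Tk1 differed from 0 h by 1.42 in Tconv in vivo at 24 h and 1.56 in Treg in vitro at 72 h, against 1.55 and 1.50 for the one used. The other cluster of Slbp differed by 1.31 and 1.32, against 1.30 and 1.16. Elsewhere the Tk1 clusters went apart. In Tconv in vitro the other one had means of 7.39 at 0 h and 7.25 at 72 h, and the one used 7.41 and 7.98. In Tconv in vivo at 8 h they differed from 0 h by -0.52 and -0.12.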

How the data were processed

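RNA of sorted Tconv and Treg was measured on 42 Affymetrix ST1.0 gene arrays in 22 groups taken from the labels. The authors deposited 1 linear intensity per transcript cluster and array made with RMA in GenePattern from amplified RNA, per the series design text, while Affymetrix Power Tools stand in the submitters' processing notes. The sources used here give neither versions nor whether RMA was run on all arrays at once. RMA background correction leaves dim genes little of their change. Median intensities per array ran from 87.6 to 116, and precision is limited by the number of arrays.

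Of 24922 clusters 21425 had 1 symbol and 1399 several, and 2098 were not listed in the platform's gene table. The cluster with the highest mean was kept for each of 19752 symbols, and a gene was tested if 2 or more arrays had it above their median (12425 genes). The log2 of each intensity, with nothing added, entered limma 3.58.1 (R 4.3.3) as 22 group means (20 residual and 5.01 prior degrees of freedom), with two-sided moderated tests and Benjamini-Hochberg adjustment within each contrast. The code was tested on simulated data. Tables and plots used Python 3.11.15, pandas 2.3.3, numpy 2.4.6 and matplotlib 3.10.9.

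The members, roles, other lists and letters searched were chosen with earlier results of these data known. Values on every array are given for the 2 called members with the largest change in each response, up to 4 with the largest difference in each comparison of cell types, responses or settings, and the member with the largest rise in each role; other genes named with values were chosen after these were seen. Alternatives were a replicate block, quantile normalization, median centring, no filter on dim genes, the mean of a symbol's clusters, leaving out the array that stood apart, and each array in turn. Leaving out the 3 arrays of narrowest range was chosen after seeing the data.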

Additional observations from a re-analysis of the deposited data

Results flagged for a closer look

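The following 13 differences between responses were singled out because the difference itself passed the test at an adjusted p under 0.05. They are given as values. In culture at 72 h the Treg change exceeded the Tconv change by 1.95 for Pole, 1.85 for Mcm10 and 1.40 for Orc6 (log2). In Treg at 72 h the in vivo change minus the in vitro change was -2.14 for Rrm2, -1.91 for Lig1, -1.90 for Mcm10, -1.57 for Orc1 and -1.42 for Rfc5. In Tconv that difference was 1.93 for Tyms and 1.42 for Tk1 at 24 h, 1.39 for Orc1 at 8 h, and -1.81 for Rpa1 and -1.89 for Slbp at 2 h. Rpa1 kept its call without each 1 of the 8 arrays involved. Each of the others lost it without at least 1 array.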

How the results depend on the processing

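Among named genes no called change reversed under any alternative, and 226 values kept their side of the threshold while 40 no longer passed it, not counting fits without single arrays. No scaling gave a called change from 0 h the opposite sign. Median centring moved changes by up to 0.20 in the median over all genes (Tconv in vitro at 24 h; 0.16 in Tconv in vivo at 8 h), and quantile normalization lowered the median difference between Treg and Tconv in vitro at 72 h from 1.16 to 0.85. Signal over background limits the dim genes, Gmnn could not be tested, and Orc1 and Gins1 passed the filter through few arrays.

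Numbers of members called are given where they moved by over 1.5 times. Except where left-out arrays leave fewer samples, the cause was not tested. Under quantile normalization they were 1 for Tconv in vivo at 2 h, 15 and 7 for Tconv in vitro at 2 and 8 h, 2 for Treg in vivo at 2 h, 0, 1 and 1 for Treg in vitro at 2, 8 and 24 h, 5 for Treg against Tconv in vitro at 0 h, and 2 for KT3 against IgG in Treg. Median centring gave 1 for Treg in vivo at 8 h, 4 for Treg against Tconv in vitro at 0 h and 5 for KT3 against IgG in Treg. With no filter on dim genes, Treg in vitro had 0 at 2 h and 3 at 24 h. Without the array that stood apart there were 1 for Tconv in vivo at 2 h, 0, 1, 1 and 1 for Tconv in vitro at 2, 8, 24 and 72 h, 2 and 11 for Treg in vivo at 2 and 24 h, 3 and 12 for Treg in vitro at 2 and 24 h, 1 and 0 for Treg against Tconv at 0 h in vivo and in vitro, and 12 for KT3 against IgG in Treg. Without the 3 arrays of narrowest range they were 1 for Tconv in vivo at 2 h, 0, 0, 1 and 1 for Tconv in vitro, 2, 5 and 10 for Treg in vivo at 2, 8 and 24 h, 0 and 1 for Treg in vitro at 2 and 24 h, 1 and 0 for Treg against Tconv at 0 h, and 26 and 13 for KT3 against IgG in Tconv and Treg.

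Without single arrays in turn the counts for 2, 8, 24 and 72 h ran over 0 to 0, 12 to 19, 7 to 30 and 0 to 0 in Tconv in vivo, 0 to 14, 1 to 14, 1 to 27 and 1 to 23 in Tconv in vitro, 0 to 1, 0 to 1, 0 to 16 and 0 to 0 in Treg in vivo, and 0 to 0, 0 to 0, 0 to 8 and 30 to 37 in Treg in vitro. They ran over 0 to 0 and 0 to 11 for Treg against Tconv at 0 h in vivo and in vitro, and 3 to 26 and 0 to 17 for KT3 against IgG in Tconv and Treg.

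Array numbers were not taken as pairs, since compared groups share only 2 numbers. Deviations of same-numbered arrays correlated at -0.17 to 0.78 (median 0.30) over 45 pairs of groups in vivo and at -0.45 to 0.71 (median 0.22) in vitro, with 32 and 28 over 0.1. With the number as a replicate block the counts were 14 and 11 for Tconv in vitro at 2 and 8 h, 2, 7 and 18 for Treg in vivo at 2, 8 and 24 h, 18 for Treg in vitro at 24 h, 5 for Treg against Tconv in vitro at 0 h, and 7 for KT3 against IgG in Treg.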

Other observations

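Genes of nucleotide metabolism, which are not part of the replication set, were mostly higher in Tconv in vivo at 8 h and fell after it. Their list covers the synthesis of purines, pyrimidines and folate-bound carbon units. It also holds genes that break down or salvage nucleotides, among them Samhd1, Dctpp1, Dck and Tk2. Of 20 tested 14 were higher and 1 lower at 8 h, where 14.4% of all genes were called higher and 6.54% lower. Cad, which starts pyrimidine synthesis, rose by 2.26 ± 0.22, the folate enzyme gene Shmt1 by 2.15 ± 0.29 and the purine enzyme gene Pfas by 2.12 ± 0.21 (log2, adjusted p = 1.2e-07 for Pfas). At 24 h 0 of 20 were called (limma; 3 higher at an unadjusted p under 0.05), where 2.27% of all genes were called higher. From 8 to 24 h 12 fell and 2 rose, where 10.9% and 8.46% of all genes did, with Cad lower (-2.38 ± 0.22), as were Ctps, the gene of CTP synthase (-2.17 ± 0.27), and Shmt1 (-2.02 ± 0.29). In Treg in vitro at 72 h 8 of 20 were higher, where 7.34% of all genes were, with Shmt1 at 1.28 ± 0.29.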
